A study of Mus musculus with 5 samples.

Results

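The genes followed here are 10 genes of atrial and pulmonary vein heart muscle, measured by RNA sequencing of whole mouse lung: Myh6, Myl7, Myl4, Tnnt2, Ryr2, Pln, Sln, Mb, Nppa and Bmp10. All 10 symbols were found among the 23183 symbols listed for each library, and all 10 were measured, meaning a mean of at least 1 CPM (the count of a gene scaled to the size of its library), as were 14305 genes in all. They were picked with their levels in these same libraries known, so the levels and ratios given for them are a description and carry no test.

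All lungs came from female wild-type BALB/c mice. The groups were PM10/OVA/CPX (inhaled particulate matter, the allergen ovalbumin and a chitinase-1 inhibitor abbreviated CPX), PM10/OVA/Dex (the same exposures with dexamethasone, a synthetic glucocorticoid), PM10/OVA, PM10 alone, and an untreated control. Per the design text, PM10 went into the nose 4 times within 2 weeks, and ovalbumin was injected and later also placed in the nose. The inhibitor was injected on 6 occasions over 3 weeks, dexamethasone on 3 occasions in the final week. Collection followed the last challenge by 2 days. Each group has 1 library, and whether it came from 1 mouse or from pooled mice is not given in the sources used here, so a difference is one between libraries and has no replicate check. Mouse age and doses are not given there either.

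Library totals ran from 11993222 to 16929068 counts, and a count of 0 allows up to 3 counts, or 0.173 to 0.252 CPM. Intervals are 95% intervals from the counts and cover counting error only. Lung identity was alike across libraries: none of 12 epithelial and endothelial marker genes was 2-fold higher or lower than control in any exposed library. In bulk lung RNA, fewer heart muscle cells, less RNA per cell and differing amounts of tissue taken with the lung cannot be told apart.

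In mice, heart muscle does not end at the heart: a sleeve of atrial-type cardiomyocytes runs along the pulmonary veins into the lung. These cells contract with alpha myosin heavy chain and the atrial light chains, release calcium through the ryanodine receptor, and take it up again with a pump that the small membrane proteins phospholamban and sarcolipin restrain. Atrial cardiomyocytes also secrete hormones, chiefly atrial natriuretic peptide, which lowers blood volume and pressure, and the growth factor BMP10, which acts on endothelium.

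The atrial type of the signal was checked first, against ventricular and skeletal muscle markers. It was checked on RPKM (CPM per kilobase of annotated exon), on which levels of single genes can be compared as far as those lengths hold. Myl7, the atrial regulatory light chain, was at 37.8 RPKM in PM10/OVA/CPX, 82.8 in PM10/OVA/Dex, 44.2 in PM10/OVA, 103 in PM10 and 424 in control. Its ventricular counterpart Myl2 had 4 counts in control and 0 in the other 4 libraries, and the ventricular factor Irx4 had 0 counts in all 5. Of the 8 genes in the ventricular list, Kcne1 was also near 0, with 1 count in all.

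Myl3, the ventricular and slow-muscle essential light chain, was at 0.781 to 1.74 RPKM in the 4 exposed libraries and 2.31 in control, against 7.37 to 18.1 and 74.4 for its atrial counterpart Myl4. Of the genes that define skeletal muscle, Myod1, Myog and Myh4 had 0 counts in every library. Other genes of that list were present, and 10 of the 22 were measured. Myl1 had 35 counts in PM10/OVA/CPX, 84 in PM10/OVA/Dex, 45 in PM10/OVA, 69 in PM10 and 325 in control. In PM10/OVA against control, Myl1 was 6.60-fold and Tnnt3 3.47-fold lower, while Mybpc2 was 2.65-fold higher. The 22 skeletal muscle genes summed to 24.0 CPM in PM10/OVA/CPX, 33.2 in PM10/OVA/Dex, 28.6 in PM10/OVA, 30.3 in PM10 and 47.6 in control. The ventricular list was not at 0 throughout. Hey2 had 52 counts in PM10/OVA/CPX, 42 in PM10/OVA/Dex, 67 in PM10/OVA, 48 in PM10 and 91 in control. It was 1.24-fold lower in PM10/OVA than in control (0.896 to 1.73). Myh7, the slow myosin heavy chain, was at 11.0 RPKM in PM10/OVA/CPX, 11.9 in PM10/OVA/Dex, 9.02 in PM10/OVA, 10.7 in PM10 and 15.3 in control. Beside it, Myh6 was at 11.2, 39.3, 13.7, 45.2 and 176 RPKM in the same libraries. Nppb, the B-type natriuretic peptide that both heart chambers make, was at 16.98 RPKM in control and at most 0.108 elsewhere, and Lrrc10 had 47 counts in control and 0 to 2 elsewhere. The light chains were thus mostly of the atrial kind, while Myh7 was close to Myh6 in PM10/OVA/CPX. The levels of Myh6 and Myh7 were not taken as a mark of the chamber. Atrium and pulmonary vein sleeve cannot be told apart by the 10 genes.

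**Figure D1:**
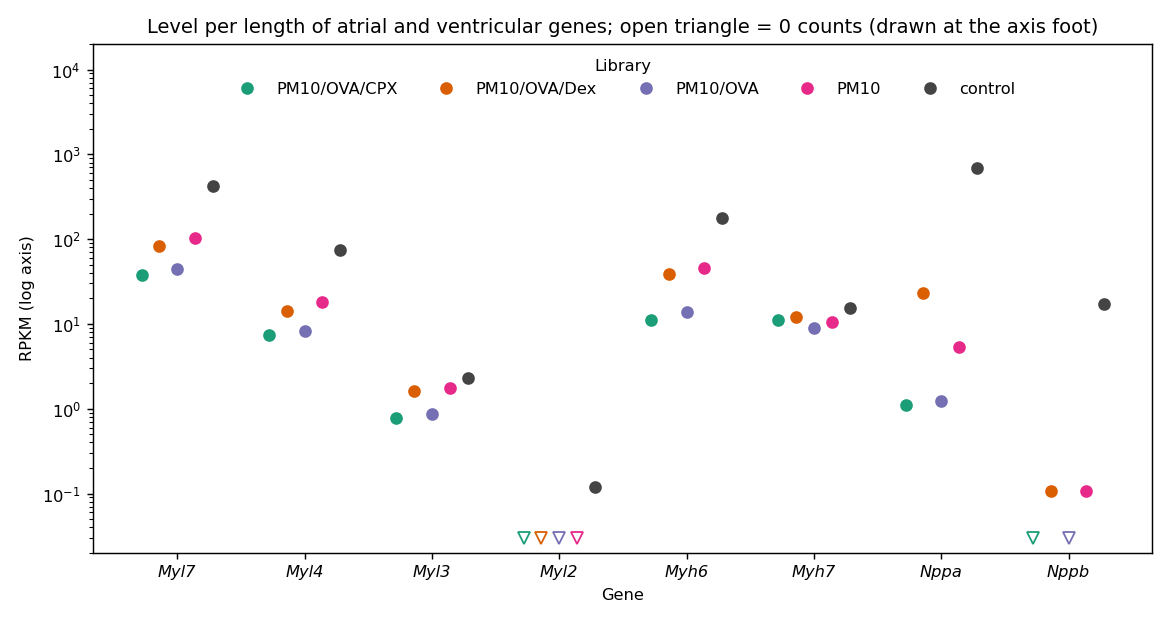
RPKM on a log axis of genes from the atrial list (Myl7, Myl4, Myh6, Nppa) and the ventricular list (Myl3, Myl2, Myh7, Nppb). There is 1 point per library, with open triangles for 0 counts. Membership of a list does not mean that a gene is confined to that chamber. Myl7 is at 37.8 to 424 RPKM while Myl2 is drawn at 0 in every library but control, where it had 4 counts.

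The contractile genes were highest in control and lowest in PM10/OVA/CPX. Myh6, alpha myosin heavy chain (GRCm38 chromosome 14, 54941921 to 54966927, protein-coding), was at 75.1 CPM in PM10/OVA/CPX, 264 in PM10/OVA/Dex, 92.3 in PM10/OVA, 304 in PM10 and 1182 in control. It was 3.89-fold lower in PM10 than in control (interval 3.76 to 4.03) and 12.8-fold lower in PM10/OVA than in control (12.1 to 13.5). The Dex and PM10 libraries stood together in the middle, and the remaining pair of exposed libraries was low. Myh6 has a close paralog next to it, Myh7, so its reads may be split with that gene.

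Myl7 (chromosome 11, 5896637 to 5898782) was at 22.3 CPM in PM10/OVA/CPX, 48.9 in PM10/OVA/Dex, 26.1 in PM10/OVA, 60.9 in PM10 and 249.9 in control. The level of Myl4, the atrial essential light chain (chromosome 11, 104550663 to 104595753), was 34.2 CPM in PM10/OVA/CPX, 65.8 in PM10/OVA/Dex, 38.7 in PM10/OVA, 84.1 in PM10 and 345 in control. Both had the same order of libraries as Myh6, and both were 4.10-fold lower in PM10 than in control. In PM10/OVA/CPX against PM10/OVA the fold was 0.855 for Myl7 (0.732 to 0.998) and 0.882 for Myl4 (0.778 to 0.99988), beside 0.814 for Myh6 (0.749 to 0.884). The CPM intervals of these libraries overlapped for either light chain and not for Myh6.

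Tnnt2, cardiac troponin T of the thin filament (chromosome 1, 135836354 to 135852260), was at 43.4 CPM in PM10/OVA/CPX, 108 in PM10/OVA/Dex, 60.5 in PM10/OVA, 99.98 in PM10 and 335 in control. It had the smallest difference of the 10 genes in 3 of the 4 comparisons with control: it was 7.73-fold lower in PM10/OVA/CPX (7.08 to 8.46), 5.54-fold lower in PM10/OVA (5.17 to 5.94) and 3.35-fold lower in PM10 (3.15 to 3.57). In PM10/OVA/Dex, where it was 3.10-fold lower than control (2.92 to 3.30), Pln had the smallest difference.

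The calcium genes split the middle libraries in different ways. Ryr2, the calcium release channel of the sarcoplasmic reticulum (chromosome 13, 11553102 to 12106945), was at 4.39 CPM in PM10/OVA/CPX, 17.2 in PM10/OVA/Dex, 6.43 in PM10/OVA, 25.2 in PM10 and 86.3 in control. Like the myosin genes, it was higher in PM10 than in PM10/OVA/Dex, with intervals apart. It was 3.91-fold lower in PM10/OVA than in PM10 (3.12 to 4.95).

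Pln, phospholamban, the pump's inhibitor (chromosome 10, 53337667 to 53345987), was at 8.22 CPM in PM10/OVA/CPX, 31.6 in PM10/OVA/Dex, 6.43 in PM10/OVA, 17.6 in PM10 and 96.5 in control. Here PM10/OVA/Dex was above PM10, the reverse of Ryr2. Pln was 4.91-fold higher in PM10/OVA/Dex than in PM10/OVA (3.94 to 6.18), while Ryr2 was 2.67-fold higher (2.09 to 3.42), and these intervals did not overlap. Smooth muscle also contains Pln, and the gene lies inside Cep85l, which is read from the opposite strand and had 991 counts over the 5 libraries. Since the strand setting of the counting is not given, reads of such pairs cannot be told apart. The same holds for Mb and Apol6, which overlaps it on the opposite strand and had 106 counts.

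Sln, sarcolipin, the atrial relative of phospholamban (chromosome 9, 53850164 to 53854560), was at 6.47 CPM in PM10/OVA/CPX, 17.8 in PM10/OVA/Dex, 9.46 in PM10/OVA, 11.8 in PM10 and 88.0 in control. Its PM10/OVA and PM10 intervals overlapped, with PM10/OVA 1.25-fold lower than PM10 (0.989 to 1.58). Of the 9 genes with more than 3 counts in both of these libraries, Sln was the only one whose interval for this fold included 1. Mb, myoglobin, which stores oxygen in heart and red skeletal muscle (chromosome 15, 77015487 to 77050670), was at 8.14 CPM in PM10/OVA/CPX, 18.9 in PM10/OVA/Dex, 7.70 in PM10/OVA, 15.6 in PM10 and 179.5 in control. Every exposed library lay far under control, the 2 highest included: Mb was 9.49-fold lower in PM10/OVA/Dex (8.29 to 10.9) and 11.5-fold lower in PM10 (9.95 to 13.4).

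The secreted factors differed most between control and the exposed libraries. Nppa, the atrial natriuretic peptide precursor (chromosome 4, 148000722 to 148002079), had 12 counts in PM10/OVA/CPX, 235 in PM10/OVA/Dex, 17 in PM10/OVA, 56 in PM10 and 10316 in control. These are 0.958, 19.8, 1.07, 4.64 and 595 CPM. Against control, Nppa was 621-fold lower in PM10/OVA/CPX (355 to 1202), 30.1-fold lower in PM10/OVA/Dex (26.4 to 34.4), 555-fold lower in PM10/OVA (346 to 952) and 128-fold lower in PM10 (98.7 to 170). Nppa was 18.4-fold higher in PM10/OVA/Dex than in PM10/OVA (11.3 to 32.2), the largest fold of any of the 10 genes between those libraries.

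Bmp10, an endothelial growth factor made by the atria (chromosome 6, 87428994 to 87437677), had 1 count in PM10/OVA/CPX, 0 in PM10/OVA/Dex, PM10/OVA and PM10, and 154 in control, or 8.88 CPM. With the allowance of 3 counts in place of 0, it was 35.2-fold lower in PM10/OVA/Dex, 46.9-fold in PM10/OVA and 35.7-fold in PM10. The exact lower limits of these folds were 28.3, 37.7 and 28.7. In PM10/OVA/CPX its ratio was 111-fold lower than control (19.7 to 4420). At these depths a Bmp10 level under the allowance was not detectable, and the 4 exposed libraries cannot be ordered. Nppb had 0 counts in PM10/OVA/CPX and PM10/OVA, 1 each in PM10/OVA/Dex and PM10, and 230 in control.

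**Figure D2:**
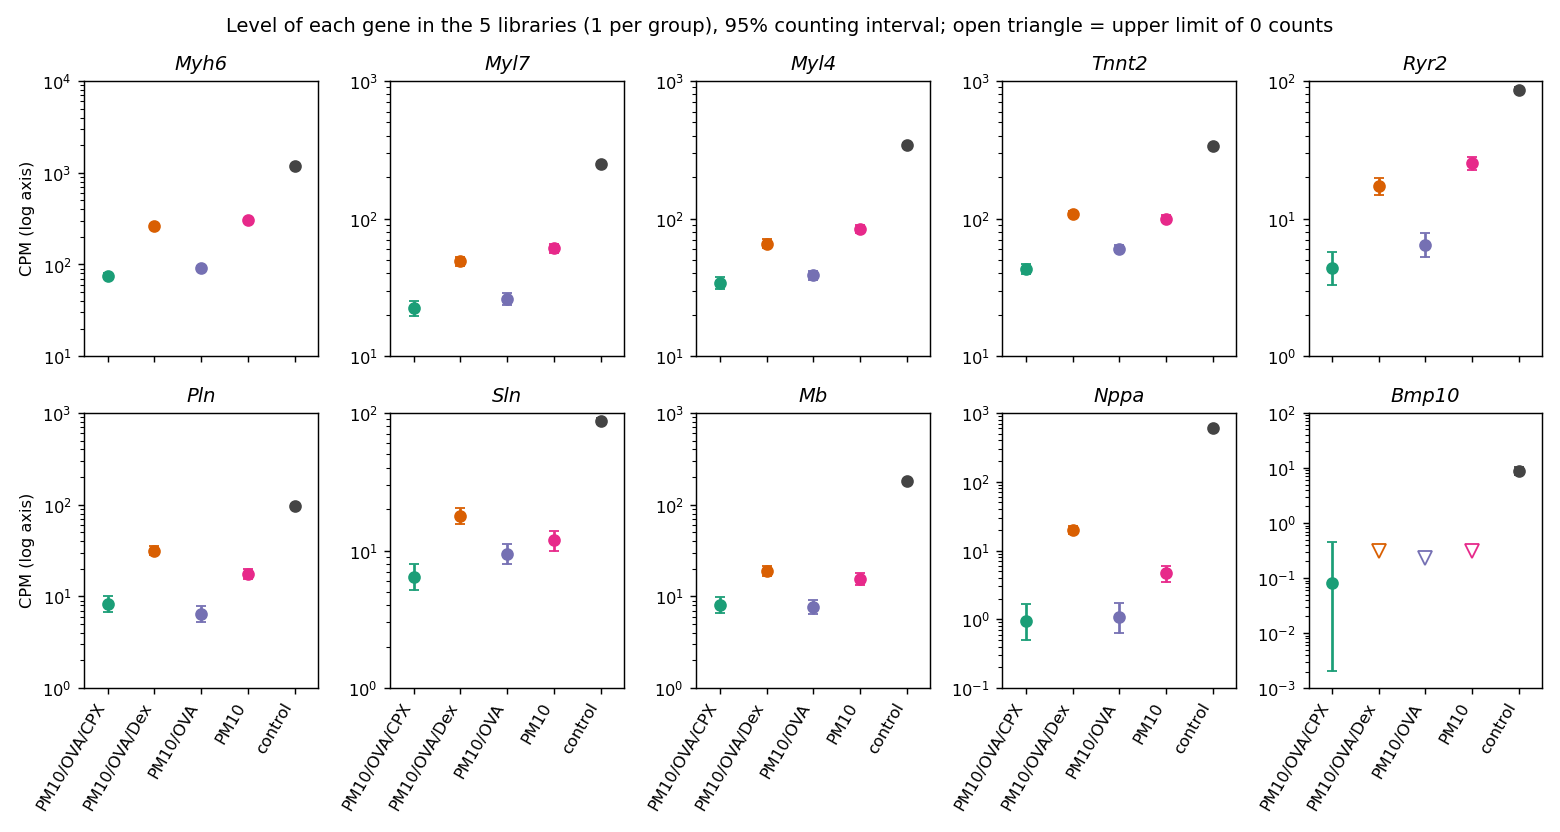
CPM on a log axis of each of the 10 genes in the 5 libraries, 1 point per library with its 95% counting interval, and an open triangle at the upper limit for 0 counts. Control is the highest point in every panel, PM10/OVA/CPX and PM10/OVA are low, and the Nppa panel runs from 0.958 to 595 CPM.

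Together the 10 genes summed to 203 CPM in PM10/OVA/CPX, 592 in PM10/OVA/Dex, 249 in PM10/OVA, 624 in PM10 and 3166 in control. They took 0.0202%, 0.0587%, 0.0246%, 0.0625% and 0.324% of all counts in these libraries. Control was the top library for all 10, and in 9 of them PM10 and PM10/OVA/Dex held the next 2 places, with Bmp10 too low to order. The intervals of PM10/OVA/Dex and PM10 overlapped for Tnnt2 and Mb, and those of PM10/OVA/CPX and PM10/OVA for 7 genes, Bmp10, Myh6 and Tnnt2 aside.

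Differences were then counted on log2(CPM + 1), where a gene is counted when at least 2-fold lower or higher. In each of the 4 comparisons with control, which share that library, all 10 genes were at least 2-fold lower. Over all measured genes the share at least 2-fold lower was 2.99% in PM10/OVA/CPX, 2.01% in PM10/OVA/Dex, 2.73% in PM10/OVA and 2.04% in PM10. None of the 10 was 2-fold higher, where 2.73%, 1.57%, 3.17% and 3.7% of measured genes were. The median log2 ratio of the 10 genes was -3.50, -2.30, -3.43 and -2.21 in these comparisons, while that of all measured genes lay between 0.00 and 0.02. Since the genes were chosen on such values, nothing is read from the counts. The mean that makes a gene measured includes control. A gene such as Bmp10 or Nppb therefore passes through control alone, which favours counting it as lower.

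When ovalbumin was added to the particles, 6 of the 10 genes were at least 2-fold lower in PM10/OVA than in PM10, with a background of 1.27% of measured genes. None was 2-fold higher, as 0.692% of measured genes were. The 6 lower genes were Myh6, Nppa, Pln, Ryr2, Myl7 and Myl4, and with a pseudocount of 5 CPM 4 genes were lower. Mb, Sln and Tnnt2 were lower by less than 2-fold on this scale, and Bmp10 had 0 counts in both. With the inhibitor, none was 2-fold lower or higher in PM10/OVA/CPX than in PM10/OVA, where 0.762% of measured genes were lower and 0.636% higher. Smaller differences had intervals below 1 for 6 genes, Myh6, Myl7, Myl4, Tnnt2, Ryr2 and Sln, with folds of 0.683 to 0.882.

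With dexamethasone, Myh6, Nppa, Pln, Ryr2 and Mb had levels 2-fold or more above PM10/OVA, 5 of the 10 genes, against 1.2% of measured genes. None was 2-fold lower, as 1.6% of measured genes were. The number was 3 with a pseudocount of 5 CPM. Myl7, Sln, Tnnt2 and Myl4 were 1.88-, 1.88-, 1.79- and 1.70-fold higher, with no interval reaching down to 1. Fat-cell genes were also higher in this comparison: 7 of 15 measured passed 2-fold in the Dex library, as were 6 of 10 cartilage genes, and their part in the result was not tested.

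Transcripts of 1 tissue that differed only in amount, with fixed levels per cell and no other source, would keep their ratios to each other. A changed ratio does not tell which of these conditions failed, and no cause was tested. This was examined with counts of each gene per Myl7 count, which no scaling between libraries can alter. Myl4 kept its ratio to Myl7. There were 1.53 Myl4 counts per Myl7 count in PM10/OVA/CPX (interval 1.32 to 1.79), 1.35 in PM10/OVA/Dex, 1.49 in PM10/OVA (1.31 to 1.69), 1.38 in PM10 (1.25 to 1.52) and 1.38 in control (1.33 to 1.44). None of the 10 pairs of libraries had intervals apart, although the levels differed widely, with Myl7 11.2-fold and Myl4 10.1-fold lower in PM10/OVA/CPX than in control.

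The other contractile and calcium genes kept their ratios less well. Per Myl7 count there were 3.37 Myh6 counts in PM10/OVA/CPX, 5.41 in PM10/OVA/Dex, 3.54 in PM10/OVA, 4.99 in PM10 and 4.73 in control, and 7 of the 10 library pairs had intervals apart. For Tnnt2 the values were 1.95 in PM10/OVA/CPX, 2.21 in PM10/OVA/Dex, 2.32 in PM10/OVA, 1.64 in PM10 and 1.34 in control, so that every exposed library had more troponin T per light chain than control. The highest library was 1.60 times the lowest for Myh6, 1.73 for Tnnt2, 2.10 for Ryr2 and 1.88 for Sln.

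Pln per Myl7 count was 0.647 in PM10/OVA/Dex and between 0.247 and 0.386 in the other libraries. The highest value was 2.62 times the lowest, and 1.56 times without the Dex library. For Sln, the PM10 library was lowest, at 0.195 against 0.290 to 0.365, and without it the ratio of highest to lowest was 1.26. The PM10 interval (0.161 to 0.233) overlapped that of PM10/OVA/CPX (0.224 to 0.373) and was apart from the others. For Mb, control alone was high, at 0.719 against 0.256 to 0.387, and the highest was 2.81 times the lowest with control and 1.51 times without it.

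Nppa did not keep its ratio. There were 0.0430 Nppa counts per Myl7 count in PM10/OVA/CPX (0.0220 to 0.0763), 0.404 in PM10/OVA/Dex (0.346 to 0.471), 0.0412 in PM10/OVA (0.0237 to 0.0667), 0.0762 in PM10 (0.0570 to 0.100) and 2.38 in control (2.30 to 2.47). The highest value was 57.8 times the lowest with control, and 9.83 times without it, so the Dex library also stood apart. Bmp10 gave 0.0355 counts per Myl7 count in control (0.0301 to 0.0417) and no more than an upper limit of 0.00503 in PM10, 0.00897 in PM10/OVA and 0.00637 in PM10/OVA/Dex.

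Of the summed counts of the 10 genes, Nppa took 0.472% in PM10/OVA/CPX, 3.34% in PM10/OVA/Dex, 0.431% in PM10/OVA, 0.744% in PM10 and 18.8% in control (exact binomial interval 18.5 to 19.1). With counts divided by exon length, the Nppa share of the members' counts was 1.45% in PM10/OVA/CPX, 10.8% in PM10/OVA/Dex, 1.37% in PM10/OVA, 2.54% in PM10 and 42.1% in control, higher in each library and in the same order. Per length it was the most abundant of the 10 in control, at 688 RPKM, the third in PM10/OVA/Dex and the eighth in the other libraries, where Myl7 led. Union exon lengths were used, 865 bases for Nppa and 590 for Myl7 but 7752 for Tnnt2 and 4637 for Myl4. Places and per-length shares depend on these lengths, and no other lengths were tried. Myl7, Myh6 and Ryr2 held nearly constant places, with Ryr2 the ninth everywhere.

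The same result in fold terms is the spread between the genes with the smallest and the largest fold. In PM10/OVA against control the log2 fold of Nppa was -9.12 and that of Tnnt2 was -2.47, a spread of 6.65. Without Nppa the remaining 8 genes with more than 3 counts spanned 2.07, with Mb lowest. Of their 28 pairs, 21 still had fold intervals apart. In PM10/OVA/CPX against PM10/OVA the spread was 0.91 and 5 of 36 pairs were apart, the smallest spread of the 7 comparisons made.

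**Figure D3:**
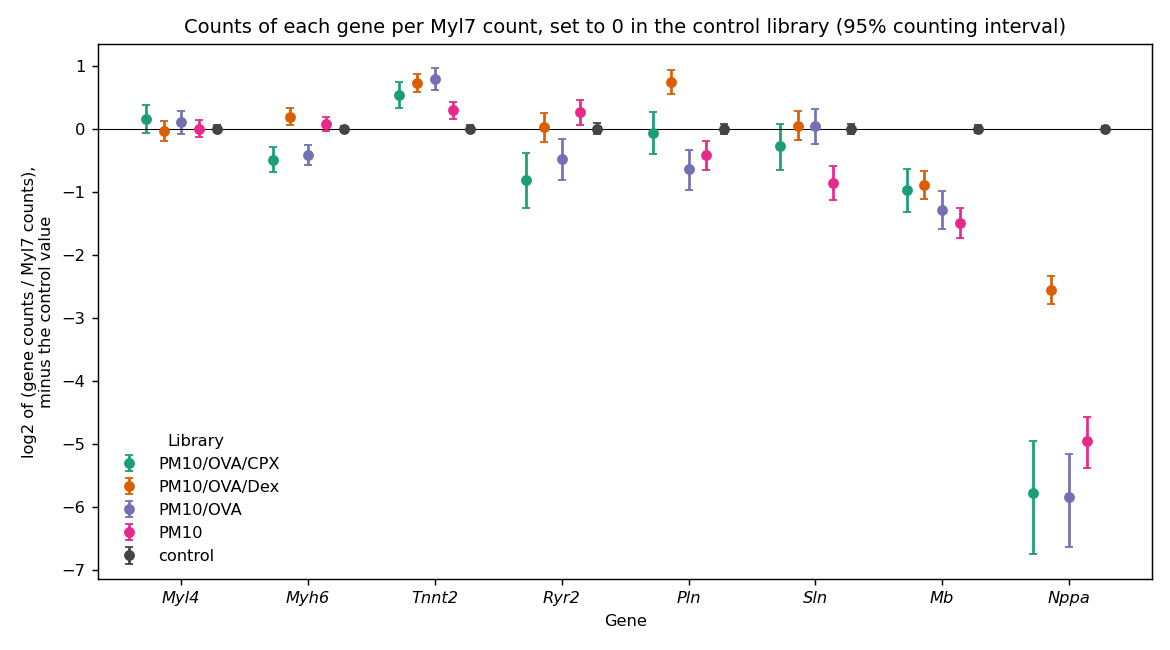
Log2 counts of each gene per Myl7 count, minus the value in control, for the 5 libraries with 95% counting intervals that cover the plotted library alone. Myl4 lies near the zero line in every library, Tnnt2 lies above it and Mb below it in the 4 exposed libraries, and Nppa lies lowest.

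Promoter sequences were looked at for letters that the 10 genes might share. RefSeq windows of 250 bases before to 50 after the start of transcription (GRCm38.p6) matched 9 of the 10 symbols, with 12 windows. 4 of them are shown for reference beside the levels above. They are those of both secreted factors, which differed most from control, and of the myosin genes Myh6 and Myl7, which differed less. Their positions are chr4:148000472-148000771 on the plus strand for Nppa, chr6:87428744-87429043 on the plus strand for Bmp10, chr14:54966558-54966857 on the minus strand for Myh6 and chr11:5898733-5899032 on the minus strand for Myl7. Capitals mark matches, on either strand, to the GATA factor motif AGATAA or TGATAA, the NKX2-5 motif TNAAGTG, the TATA motif TATAAA, and the CArG box of serum response factor. No marked matches overlap each other.
Nppa promoter: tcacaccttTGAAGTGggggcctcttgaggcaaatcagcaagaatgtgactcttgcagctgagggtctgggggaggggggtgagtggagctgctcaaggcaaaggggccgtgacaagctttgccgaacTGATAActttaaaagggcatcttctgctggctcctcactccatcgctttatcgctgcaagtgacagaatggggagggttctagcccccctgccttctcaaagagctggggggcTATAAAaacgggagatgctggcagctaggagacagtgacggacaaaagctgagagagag
Bmp10 promoter: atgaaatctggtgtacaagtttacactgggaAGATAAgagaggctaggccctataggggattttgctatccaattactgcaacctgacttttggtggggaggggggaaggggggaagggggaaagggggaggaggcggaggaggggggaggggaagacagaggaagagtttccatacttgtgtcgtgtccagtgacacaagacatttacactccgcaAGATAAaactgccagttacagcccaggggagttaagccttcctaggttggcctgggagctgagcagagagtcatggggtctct
Myh6 promoter: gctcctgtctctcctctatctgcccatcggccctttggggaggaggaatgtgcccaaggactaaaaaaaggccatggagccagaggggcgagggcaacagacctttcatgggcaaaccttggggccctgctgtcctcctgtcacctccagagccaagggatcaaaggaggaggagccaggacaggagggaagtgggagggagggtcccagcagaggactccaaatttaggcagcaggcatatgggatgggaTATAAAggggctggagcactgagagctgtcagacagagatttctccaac
Myl7 promoter: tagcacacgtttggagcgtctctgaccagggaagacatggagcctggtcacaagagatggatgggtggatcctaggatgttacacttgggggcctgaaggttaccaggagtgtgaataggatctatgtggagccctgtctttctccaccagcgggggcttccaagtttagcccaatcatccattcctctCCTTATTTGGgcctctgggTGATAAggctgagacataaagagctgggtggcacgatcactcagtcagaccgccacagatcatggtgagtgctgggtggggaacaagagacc

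Of the 12 windows, 5 held the GATA motif (1 each for Nppa, Bmp10, Myl7, Pln and Tnnt2), where 18.6% of all 32851 windows hold it. The M-CAT motif CATTCC, bound by TEAD factors, was in 3 windows, of Myh6, Myl7 and Tnnt2 (14.7% of all windows), and TATAAA in 3, of Nppa, Myh6 and Pln (13.6%). The NKX2-5 motif was in 1 window, of Nppa (11.5% of all), and the CArG box in 1, of Myl7 (1.63%). The MEF2 box was in none of the 12 (0.557%), and the E-box CANNTG in 10 (72.3%). A match of letters is a description and not a site.

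Gene lists of heart muscle, counted without the 10 genes, followed them in part. Of 21 other measured sarcomere genes, 19 were at least 2-fold lower in PM10/OVA than in control, with a median log2 ratio of -2.79 beside 0.01 over all measured genes. They included the giant protein titin (Ttn, 16.5-fold lower, 14.4 to 19.1), the thin-filament elongator Lmod2 (13.9-fold, 9.70 to 20.5), the M-band protein Myom2 (12.6-fold, 9.86 to 16.3) and cardiac troponin I (Tnni3, 9.87-fold, 8.74 to 11.2). Myh7 was 1.70-fold lower (1.58 to 1.82), one of the 2 sarcomere genes not counted.

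Genes of muscle energy supply were lower as well, in 14 of 16 cases other than Mb, with a median of -2.17. Ckm and Ckmt2, the cytosolic and mitochondrial creatine kinases, were 8.93-fold (7.26 to 11.1) and 8.29-fold lower (6.44 to 10.8) in PM10/OVA than in control. In the calcium list 4 of 16 genes were counted, 3 of which act with Ryr2 in the sarcoplasmic reticulum: Hrc (14.1-fold lower), Trdn (9.35-fold) and Casq2 (7.37-fold). The fourth was the calcium pump Atp2a2 (2.50-fold lower, 2.42 to 2.58), which cells other than muscle use too. The median of that list was -0.73.

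Atrial and conduction genes other than the 10 gave 6 of 9 and 9 of 18 genes counted as lower in PM10/OVA than in control, and 4 genes (Kcnj3, Kcnj5, Kcna5 and Fgf12) are among the lower ones of both lists. Kcnj3, a subunit of the atrial potassium channel opened by acetylcholine, was 35.6-fold lower (21.0 to 65.5), its partner Kcnj5 9.11-fold (6.32 to 13.5) and the atrial kinase gene Sbk3 23.1-fold (15.9 to 34.7). Of the cardiac transcription factors 3 of 10 were counted, Tbx20 (11.2-fold), Tbx18 (6.86-fold) and Gata4 (3.62-fold), and the median was -0.49.

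In the natriuretic and BMP10 pathway the ligands Nppa, Nppb and Bmp10 were lower, the ligands Nppc and Gdf2 were under the level for measured genes, and none of its measured receptors was 2-fold lower or higher. Of 16 measured genes besides Nppa and Bmp10, 2 were at least 2-fold lower in PM10/OVA than in control, Nppb and Corin. Nppb was 70.1-fold lower with 3 counts in place of 0 (exact lower limit 56.5). Corin, the protease that activates the natriuretic peptide precursor, was 7.63-fold lower (5.27 to 11.4). Npr1, the receptor of atrial natriuretic peptide, was at 143 CPM in PM10/OVA/CPX, 131 in PM10/OVA/Dex, 133 in PM10/OVA, 116 in PM10 and 144 in control. Of the BMP10 receptors, Acvrl1 was at 571, 711, 529, 497 and 673 CPM, and Bmpr2 at 820.4, 1111, 751, 919 and 1141 CPM, in the same libraries. Id1, a target gene of BMP signalling, was at 99.7, 165, 66.8, 88.5 and 82.8 CPM, highest in the Dex library.

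Genes of fat and cartilage, tissues that border the lung, were lower as well. In PM10/OVA against control, 11 of 15 fat genes and 10 of 10 measured cartilage genes were at least 2-fold lower, with medians of -2.67 and -2.58. Some genes of both lists, Comp and Ucma of cartilage among them, reached a mean of 1 CPM only through control. For these the filter itself favours a lower level in the exposed libraries. The fat hormone gene Adipoq was 14.6-fold lower (10.6 to 20.8) and the lipogenic gene Thrsp 23.4-fold lower (18.6 to 29.7). The cartilage proteoglycan gene Acan had 0, 29, 2, 40 and 618 counts in PM10/OVA/CPX, PM10/OVA/Dex, PM10/OVA, PM10 and control. The fat list summed to 603 to 775 CPM in the exposed libraries and 1149.7 CPM in control, and the cartilage list to 25.0 to 73.0 and 167 CPM. Single genes weigh heavily in these sums. Lpl of the fat list was at 377 to 499 CPM in the exposed libraries and 331 in control. Chad of the cartilage list was at 19.0 to 57.0 and 52.4 CPM. How much tissue from outside the lung, heart included, entered each library was not tested. Its part in the levels of the 10 genes was not tested either.

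Other muscle and nerve lists were lower by less. Of 13 smooth muscle genes other than Pln, 2 were at least 2-fold lower (median -0.74), and of 7 measured nerve and Schwann cell genes, 5 were (median -1.51). In the skeletal muscle list 2 of 10 genes were lower and 1 higher (median -0.14). Of 9 genes of epicardium, endocardium and cardiac fibroblast, 2 were lower (median -0.47). Mesothelial genes of the lung surface had no gene 2-fold lower in PM10/OVA than in control, but 4 of 8 in PM10/OVA/CPX than in control and 4 of 8 in PM10/OVA/CPX than in PM10/OVA, where none of the 10 cardiomyocyte genes was.

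**Figure D4:**
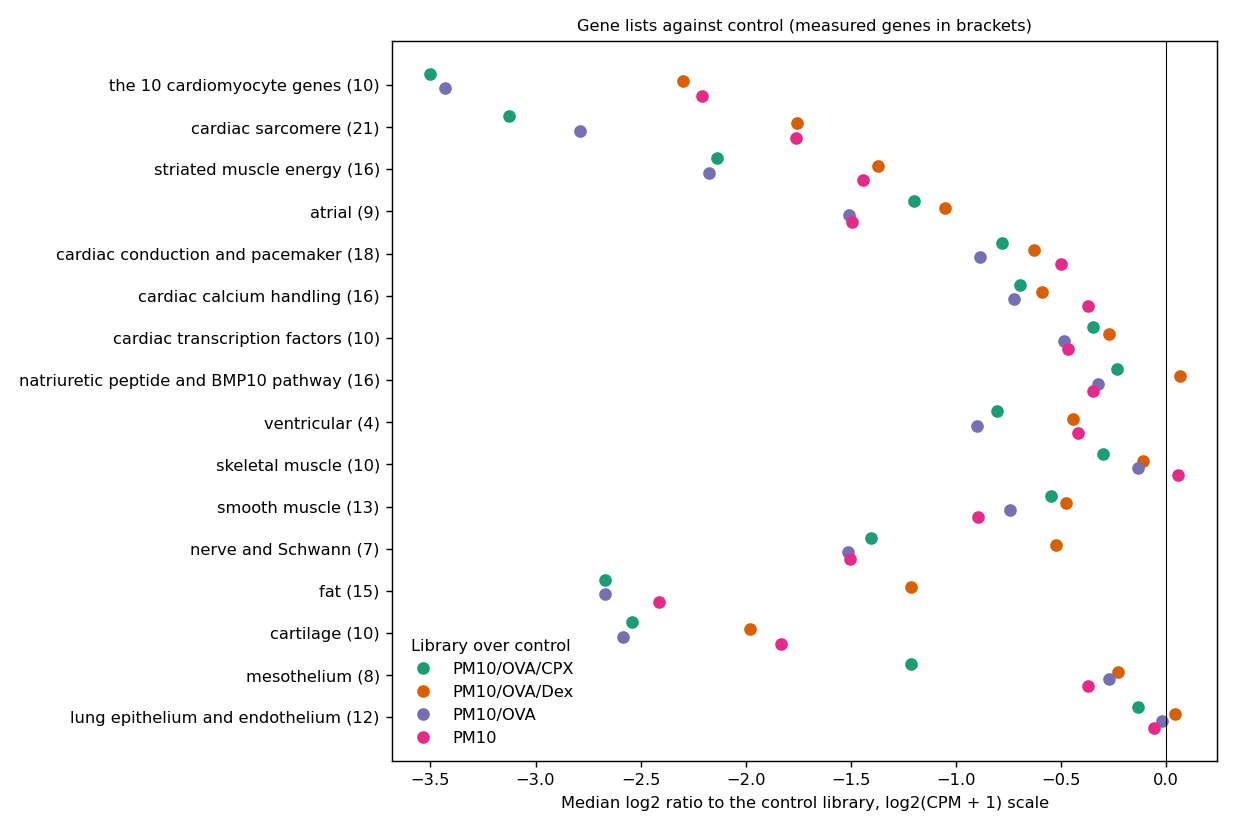
Median log2 ratio to the control library of the gene lists on the log2(CPM + 1) scale, 1 point per exposed library. The number of measured genes is in brackets, and the 10 cardiomyocyte genes are left out of every other list. The list of epicardium, endocardium and cardiac fibroblast is not drawn. The 10 cardiomyocyte genes and the other sarcomere genes lie farthest left in PM10/OVA/CPX and PM10/OVA, followed by fat and cartilage, while lung epithelium and endothelium lie near 0. In PM10, fat (-2.41) lies left of the 10 genes (-2.21). Cartilage lies left of the other sarcomere genes in PM10 (-1.83 against -1.76) and in PM10/OVA/Dex (-1.98 against -1.76).

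The genes most like the 10 over the 5 libraries were found by the root mean square difference between a gene's log2(CPM + 1) profile, centred on its mean, and the median centred profile of the 10. The nearest was Txlnb, beta-taxilin, at 0.12 log2 units, with 33 counts in PM10/OVA/CPX, 78 in PM10/OVA/Dex, 35 in PM10/OVA, 72 in PM10 and 571 in control. A530016L24Rik, Tnni3, Col11a1, Hamp, Comp, Sbk3, Mfi2, Cmya5 and Myom2 followed, at 0.14 to 0.21. Muscle genes (Tnni3, Sbk3, Cmya5, Myom2) and cartilage genes (Col11a1, Comp) thus stood side by side in this ranking. Col11a1 and Comp had 1 count each in PM10/OVA/CPX and PM10/OVA, where the pseudocount shapes their profile. As CPM ratios without it they were 184-fold and 165-fold lower in PM10/OVA than in control, against 9.87-fold for Tnni3.

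Among the 10 themselves, Myl7 (0.17) and Myl4 (0.20) lay nearest to their common profile, and Nppa (1.81) lay farthest, with Bmp10 next (0.58). On this measure 5 libraries are compared, a low gene is limited by the pseudocount, and control weighs most because it differs most. Hamp, the iron hormone hepcidin, had 13, 55, 24, 43 and 322 counts in PM10/OVA/CPX, PM10/OVA/Dex, PM10/OVA, PM10 and control.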

How the data were processed

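Whole-lung RNA of 5 groups was sequenced, 1 library each. Per the labels' protocols, libraries were made from 1.3 ug of Trizol-extracted total RNA with a directional NEBNext kit. The submitters' processing notes name TopHat and the mm10 build. The sources used here give no aligner version, counting tool, annotation, strand setting or rule for shared reads. The authors deposited whole-number read counts per gene symbol, without normalization.

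From these counts, CPM was computed with trimmed-mean (TMM) factors of edgeR 4.0.16 in R 4.3.3, which ran from 0.989 to 1.02. Positions and exon lengths are from GENCODE for GRCm38 (mm10), and a union of exons understates the level of genes with long alternative transcripts. Folds are CPM ratios with exact conditional 95% intervals. A gene counts as measured at a mean of 1 CPM over the 5 libraries, control included. Ratios for counting use a pseudocount of 1 CPM. With 1 library per group no p-value was computed. DESeq2 1.42.0 size factors, library totals, other filters and pseudocounts, and leaving out libraries were tried. The calculation was tested on simulated data.

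The members and lists were chosen with earlier results of these data known. Named genes are all members, up to 6 per list with the largest difference in PM10/OVA against control, and the 10 most alike in profile. Not every gene that meets this rule is printed, and 1 is not reported here. Genes named outside this rule (Atp2a2, Npr1, Acvrl1, Id1, Nppc, Gdf2, Kcne1, markers at 0, and the ventricular Myl2, Irx4 and Lrrc10) were picked for their role after values were seen.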

Additional observations from a re-analysis of the deposited data

How the results depend on the processing

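No paired analysis was possible because each group has 1 library. Scaling by library totals or by DESeq2 size factors left every fold of the 10 genes within its counting interval (134 of 134 recomputed values), and 98 of 100 recomputed levels. The sum of the 10 genes in control was 3243 CPM with library totals. All 10 genes were at least 2-fold lower than control in all 4 comparisons under each scaling, pseudocount and the lack of a filter, and all 9 that remained were with a mean of at least 5 CPM, which leaves out Bmp10. With a pseudocount of 5 CPM, 3 genes in place of 5 were 2-fold higher in PM10/OVA/Dex than in PM10/OVA.

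Counts over all genes moved with the settings. With a pseudocount of 5 CPM, the number 2-fold lower than control was 214 in PM10/OVA/CPX, 120 in PM10/OVA/Dex, 203 in PM10/OVA and 141 in PM10, in place of 428, 288, 390 and 292. With a mean of at least 5 CPM it was 222, 159, 208 and 146. For PM10/OVA/CPX lower than PM10/OVA it was 182 with a pseudocount of 0.25 CPM and 58 with 5 CPM, in place of 109. For PM10/OVA/Dex higher than PM10/OVA it was 294 and 55, and 106 with a mean of at least 5 CPM, in place of 172. For PM10/OVA lower than PM10 it was 308 and 78, in place of 182. A larger pseudocount shrinks ratios of low genes, and the stricter filter leaves fewer genes.

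The spread of the log2 folds of the 10 genes rests on Nppa against control. Without it the spread was 1.51 in PM10/OVA/CPX, 1.64 in PM10/OVA/Dex, 2.07 in PM10/OVA and 1.78 in PM10 against control, and 1.53 in PM10/OVA/Dex against PM10/OVA, in place of 6.33, 3.30, 6.65, 5.26 and 3.44. Leaving out 1 library at a time, chosen after seeing the data, moved 5 of 40 recomputed ratios to Myl7. Of 95 recomputed shares of the summed counts, 52 moved, 42 of them with counts per kilobase and 10 with Nppa out of the denominator. Of 672 recomputed list medians, 45 moved by at least 0.5 (log2), and no median beyond 1 in size turned its sign. Bmp10 and Nppb lie at the counting limit in the exposed libraries.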
